A study of Homo sapiens with 26 samples.

Results

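The 4 long-chain acyl-CoA synthetase genes ACSL1, ACSL3, ACSL4 and ACSL5 were followed through all 9 groups of an RNA sequencing study of HCT116 cells, a line grown from a human colorectal carcinoma. They are 4 of the 58039 genes in the deposited count table, found there by their Ensembl identifiers, and all 4 had enough counts to be among the 17198 genes tested. ACSL5 was chosen from its own readings: it was picked for its fall in the CDK8 knockout, and its paralogs were added because they belong to the same family. The CDK8KO comparisons of the 4 genes, and the CDK19KO comparison of ACSL5, are therefore given as descriptions with no test.

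The paralogs CDK8 and CDK19 serve in turn as the kinase of Mediator, the complex through which transcription factors reach RNA polymerase II. The groups were HCT116 cells with a CRISPR knockout of CDK8 (sublines CDK8KO-C1 and CDK8KO-C2), of CDK19 (CDK19KO-C1 and CDK19KO-C2), of both genes and treated with JQ1 (DKO-C1+JQ1), of both genes without treatment (DKO-C1 and DKO-C2), control HCT116 cells treated with JQ1 (HCT116+JQ1) and control HCT116 cells (HCT116). Each group had 3 libraries except DKO-C1+JQ1, which had 2. JQ1 is an inhibitor that takes BET bromodomain proteins off acetylated histones. The labels give neither its dose and time, nor whether a subline is a single clone, nor whether the libraries of a group came from separate cultures, so the p-values measure only the spread between these libraries.

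Long-chain acyl-CoA synthetases join a fatty acid to coenzyme A, which traps it in the cell and makes it usable for oxidation, for triglycerides or for membrane phospholipids. ACSL5 is best known from the intestinal epithelium, where it lies on mitochondria and the endoplasmic reticulum. ACSL1 is the main form of liver, fat and heart. ACSL3 lies on the endoplasmic reticulum and on growing lipid droplets, and ACSL4 prefers arachidonic acid and similar polyunsaturated chains and supplies the phospholipids that are oxidised in ferroptosis, an iron-dependent form of cell death. ACSL6, the fifth gene of the family, is known from brain.

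The genes lie apart, on 4 chromosomes. In GENCODE v29 (hg38), ACSL5 (ENSG00000197142) spans chromosome 10 from 112374018 to 112428380 on the plus strand, ACSL1 (ENSG00000151726) chromosome 4 from 184755595 to 184826818 on the minus strand, ACSL3 (ENSG00000123983) chromosome 2 from 222860934 to 222944639 on the plus strand, and ACSL4 (ENSG00000068366) chromosome X from 109624244 to 109733403 on the minus strand. No 50-base word of any of the 4 genes' exons occurs in the exons of another of the 4, so reads of 100 bases can separate them. Of the words of ACSL5, 5.24% occur in some other gene, against 0.108% to 0.779% for the other 3.

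The starts of the genes differ in base composition. The promoter windows below, from RefSeq (GRCh38.p14), run 5′ to 3′ on the gene's strand from 250 bases before to 50 bases after an annotated start, with each CpG dinucleotide in capitals. They are shown to set the starts of ACSL5 beside those of its paralogs. Both windows listed for ACSL5 are given, the farthest upstream of the 5 for ACSL1, and the single windows of ACSL3 and ACSL4.
ACSL5, chr10:112375018-112375317, plus strand: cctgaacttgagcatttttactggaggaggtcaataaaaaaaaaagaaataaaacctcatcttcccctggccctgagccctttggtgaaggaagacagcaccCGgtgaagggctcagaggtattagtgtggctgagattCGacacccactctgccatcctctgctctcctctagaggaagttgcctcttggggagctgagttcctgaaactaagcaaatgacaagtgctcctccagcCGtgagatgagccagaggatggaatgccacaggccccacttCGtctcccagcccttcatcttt
ACSL5, chr10:112375955-112376254, plus strand: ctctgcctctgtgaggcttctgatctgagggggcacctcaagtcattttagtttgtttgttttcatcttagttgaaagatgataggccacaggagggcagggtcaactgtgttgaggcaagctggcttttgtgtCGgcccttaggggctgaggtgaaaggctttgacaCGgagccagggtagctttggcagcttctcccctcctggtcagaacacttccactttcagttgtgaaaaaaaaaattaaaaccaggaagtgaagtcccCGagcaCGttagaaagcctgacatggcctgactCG
ACSL1, chr4:184825919-184826218, minus strand: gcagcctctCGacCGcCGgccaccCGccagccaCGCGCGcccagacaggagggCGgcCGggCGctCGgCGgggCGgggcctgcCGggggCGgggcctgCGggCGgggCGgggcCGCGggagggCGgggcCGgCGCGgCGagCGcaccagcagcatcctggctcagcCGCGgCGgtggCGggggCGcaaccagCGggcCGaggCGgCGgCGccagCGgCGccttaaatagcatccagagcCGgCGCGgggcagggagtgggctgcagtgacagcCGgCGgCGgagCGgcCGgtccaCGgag
ACSL3, chr2:222860786-222861085, plus strand: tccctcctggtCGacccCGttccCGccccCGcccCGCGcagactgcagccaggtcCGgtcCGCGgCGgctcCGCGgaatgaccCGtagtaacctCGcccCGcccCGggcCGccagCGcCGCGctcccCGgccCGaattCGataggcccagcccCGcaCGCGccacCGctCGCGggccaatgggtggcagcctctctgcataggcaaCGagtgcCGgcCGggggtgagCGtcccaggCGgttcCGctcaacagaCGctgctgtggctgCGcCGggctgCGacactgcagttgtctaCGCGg
ACSL4, chrX:109733208-109733507, minus strand: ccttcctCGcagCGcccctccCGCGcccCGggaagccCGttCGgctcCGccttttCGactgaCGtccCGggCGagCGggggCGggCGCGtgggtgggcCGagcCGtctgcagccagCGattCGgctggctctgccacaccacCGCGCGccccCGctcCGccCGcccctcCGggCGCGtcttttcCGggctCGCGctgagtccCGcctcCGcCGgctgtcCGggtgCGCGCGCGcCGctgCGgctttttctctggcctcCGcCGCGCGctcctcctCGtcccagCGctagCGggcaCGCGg

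The ACSL5 windows held 4 and 5 CpG dinucleotides, at 51% and 50% G and C. The ACSL1, ACSL3 and ACSL4 windows held 47, 41 and 51 CpG dinucleotides, at 82.3%, 74.0% and 77.7% G and C. The median of all 34796 promoter windows was 14 CpG dinucleotides and 58.7% G and C. Both ACSL5 windows lay below it and the printed windows of its paralogs above. The other 4 ACSL1 windows, which begin farther into the gene, held 4 to 7 CpG dinucleotides, also below that median. The letters GGGCGG, the core of a GC box, occurred on either strand 6 times in the ACSL1 window and 3 times each in those of ACSL3 and ACSL4. Neither ACSL5 window held them, and 44.9% of all windows did. None of the 5 windows printed held TATAAA on either strand, which 11.6% of all windows did. Which start HCT116 cells use was not measured, and these matches describe the letters only.

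Gene counts ran from 17700864 to 19093094 per library, ERCC spike-in counts from 193685 to 807887, and the mitochondrial share from 4.55% to 8.62%. Of 12 markers of colon epithelium, 6 averaged at least 1 CPM, their sum running from 3946 to 7606 CPM per library, while VIL1, CDX1 and LGALS4 were near 0. No marker of endothelium, blood cells, adipocytes or hepatocytes averaged 1 CPM, and 1 of 8 fibroblast markers did, COL1A1. The targeted RNAs were still present: CDK8 stood at 89.0% of control in CDK8KO and 75.5% in DKO, and CDK19 at 80.3% in CDK19KO but 131% in DKO. The edited sites are not given, so these levels do not check the labels. Scaling by ERCC counts in place of gene counts moved the median gene's log2 fold change to -1.23 in CDK8KO, -1.67 in CDK19KO, -0.92 in DKO, -0.39 for JQ1 in control cells and -0.27 for JQ1 in DKO-C1. The labels name no spike-in for the 12 single-knockout samples. Each rise or fall below is relative to the median gene. Where ERCC scaling turns a direction of ACSL1, ACSL3, ACSL4 or ACSL5 round, this is said in place or with the processing runs at the end. For the other genes it is given as counts over the gene lists and not gene by gene.

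ACSL5 ran through more than 3 orders of magnitude across the groups. Levels are in CPM, the count divided by the library's TMM-scaled size. In CDK8KO-C1 the 3 libraries held 151, 151 and 161 ACSL5 counts and averaged 8.53 CPM, and in CDK8KO-C2 they held 84, 98 and 109 counts and averaged 5.19 CPM. CDK19KO-C1 held 6558, 6282 and 6388 counts (356.1 CPM) and CDK19KO-C2 2495, 2507 and 2555 counts (138 CPM). On gene scaling, the 6 single-knockout libraries of CDK8 thus lie far below control and the 6 of CDK19 above it, with no overlap. CDK19KO-C2 lies only a little above control, at 135.5 to 140.7 CPM against 124 to 134.1 CPM. On ERCC scaling all 6 of CDK19 lie below control, at most at 234.2 against at least 240.3. How many other genes separate in this way was not counted.

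On gene scaling the double knockout held less ACSL5 RNA than either CDK8 subline, a difference that was not tested. On ERCC scaling CDK8KO-C2, at 3.276 to 5.432, overlapped DKO-C1 at 3.411 to 4.493 and DKO-C2 at 3.062 to 3.73. CDK8KO-C1 lay above them there, at 7.359 to 7.683. DKO-C1 had 66, 84 and 64 counts (3.77 CPM) and DKO-C2 had 56, 47 and 60 counts (2.89 CPM), against 2364, 2446 and 2388 counts (128.6 CPM) in control cells. JQ1 left 7 and 3 counts in the DKO-C1+JQ1 libraries (0.273 CPM) and 174, 160 and 166 counts in the HCT116+JQ1 libraries (9.501 CPM). In order of level on gene scaling the groups ran CDK19KO-C1, CDK19KO-C2, HCT116, HCT116+JQ1, CDK8KO-C1, CDK8KO-C2, DKO-C1, DKO-C2 and DKO-C1+JQ1. No pair of neighbours in that order had overlapping ranges.

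**Figure D1:**
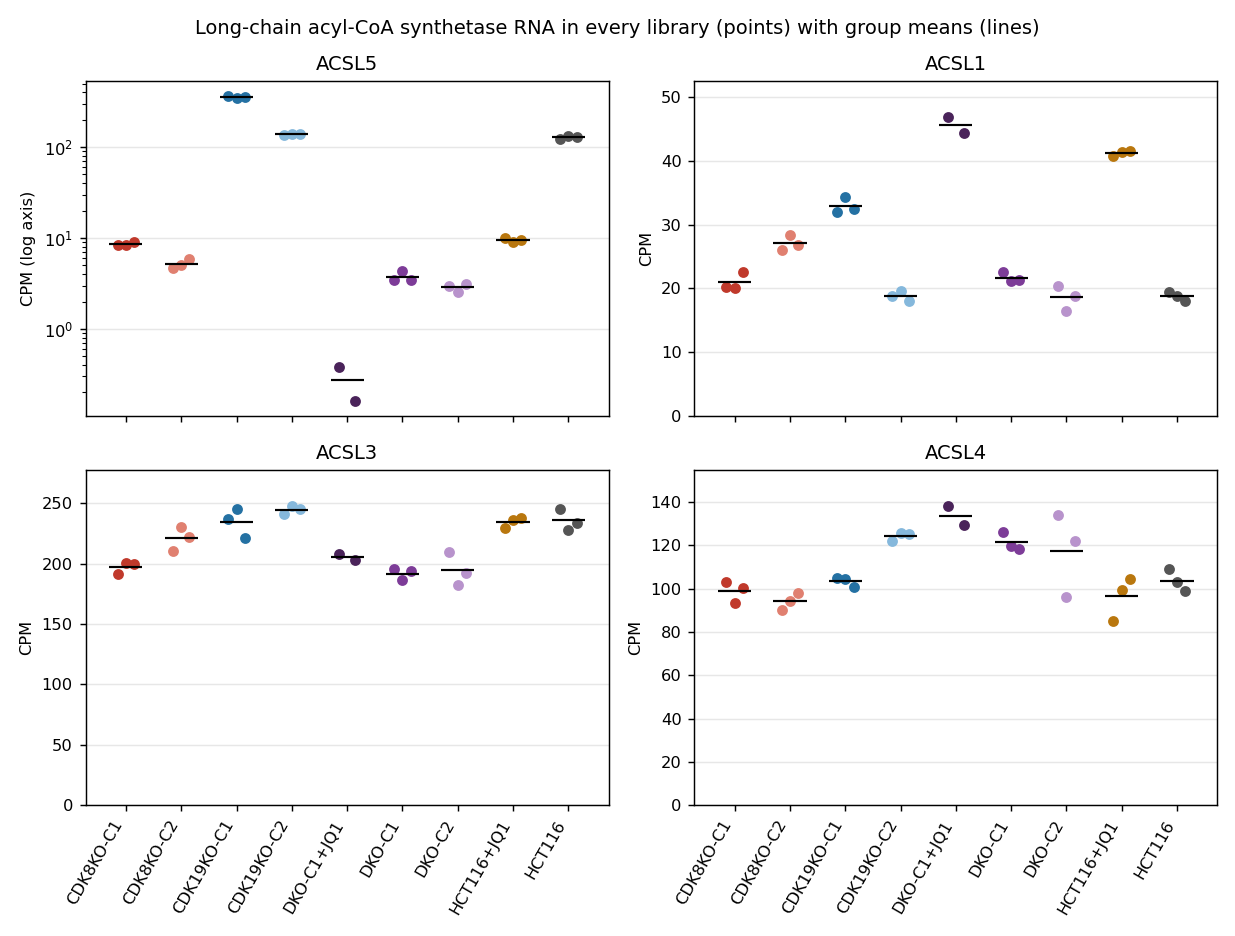
CPM of each gene (vertical axes, logarithmic for ACSL5 and linear from 0 for the others) in every library (points) of the 9 groups (horizontal axes), with lines at the group means. ACSL5 averages 356.1 CPM in CDK19KO-C1 and 0.273 CPM in DKO-C1+JQ1, against 128.6 CPM in HCT116, while ACSL3 stays between 182.3 and 247.7 CPM in all libraries.

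In CDK8KO, ACSL5 stood 4.27 ± 0.06 log2 units below control (log2 fold change -4.27 ± 0.06 SE), at -3.91 in subline C1 and -4.63 in C2. Of all genes tested, 19.5% were called higher and 21% lower in CDK8KO, at an adjusted p under 0.05. Set against CDK19KO, the CDK8KO value was -5.06, in a comparison where 47.1% of genes were called. The CDK19KO value was 0.79, but it hides unlike sublines: 1.47 ± 0.05 in C1 and 0.10 ± 0.05 in C2, and with ERCC scaling the mean turned round to -0.87. These 3 comparisons chose ACSL5 or share libraries with the choice.

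The fall named for that choice was the one in CDK8KO. The DKO and JQ1 comparisons with control cells share its control libraries, and the choice was made with earlier results of these data known. Their p-values for ACSL5 are therefore not independent of the choice. ACSL5 fell in DKO to 3.33 ± 0.62 CPM (SD, n = 6), against 128.6 ± 5.1 CPM in control (SD, n = 3), a log2 fold change of -5.28 ± 0.08 (SE; edgeR's quasi-likelihood test, adjusted p = 1.85e-40). The single sublines gave -5.09 and -5.47. Of the 4 genes, ACSL5 and ACSL3 fell in DKO and ACSL4 rose, against 32.1% of all genes called lower and 29.5% called higher. In these bulk samples, fewer cells with the RNA and less RNA per cell cannot be told apart.

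ACSL5 fell with JQ1 in both backgrounds. The HCT116+JQ1 libraries lay between 9.11 and 9.96 CPM, against 124 to 134.1 CPM in HCT116, a log2 fold change of -3.76 ± 0.07 (adjusted p = 1.48e-32). DKO-C1+JQ1 lay at 0.163 and 0.383 CPM, against 3.44 to 4.38 CPM in DKO-C1, a log2 fold change of -3.76 ± 0.40 (adjusted p = 2.26e-14). Neither pair of groups overlaps. JQ1 left 7.22% of the ACSL5 RNA in DKO-C1, with a 95% exact interval of 3.41% to 13.5% that covers counting error only (10 against 214 counts). It left 7.39% in control cells, with an interval of 6.74% to 8.09% (500 against 7198 counts).

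The difference between the log2 responses to JQ1, DKO-C1 minus control, was 0.00 ± 0.41 for ACSL5 (adjusted p = 0.984), with a 95% interval of -0.80 to 0.80. The interval is wide, so the data do not show that the responses are equal. None of the 4 genes passed the test of this difference in edgeR, DESeq2 or limma voom, where 8.59% of all genes were called in edgeR. At an unadjusted p under 0.05, ACSL4 alone passed in edgeR, with a difference of 0.24 ± 0.11. Under JQ1 itself, ACSL5 was lower in DKO-C1+JQ1 than in HCT116+JQ1 by a log2 fold change of -5.09 ± 0.40 (adjusted p = 2.04e-21). That comparison shares no library with the CDK8KO and CDK19KO comparisons. The choice of ACSL5 was still made with earlier results of these data known, so its p-value is not independent of the choice. The 2 DKO-C1+JQ1 libraries carry much of that error: without replicate 1 the JQ1 response in DKO-C1 was -4.47 and without replicate a it was -3.26, and the value under JQ1 was -5.81 and -4.61.

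**Figure D2:**
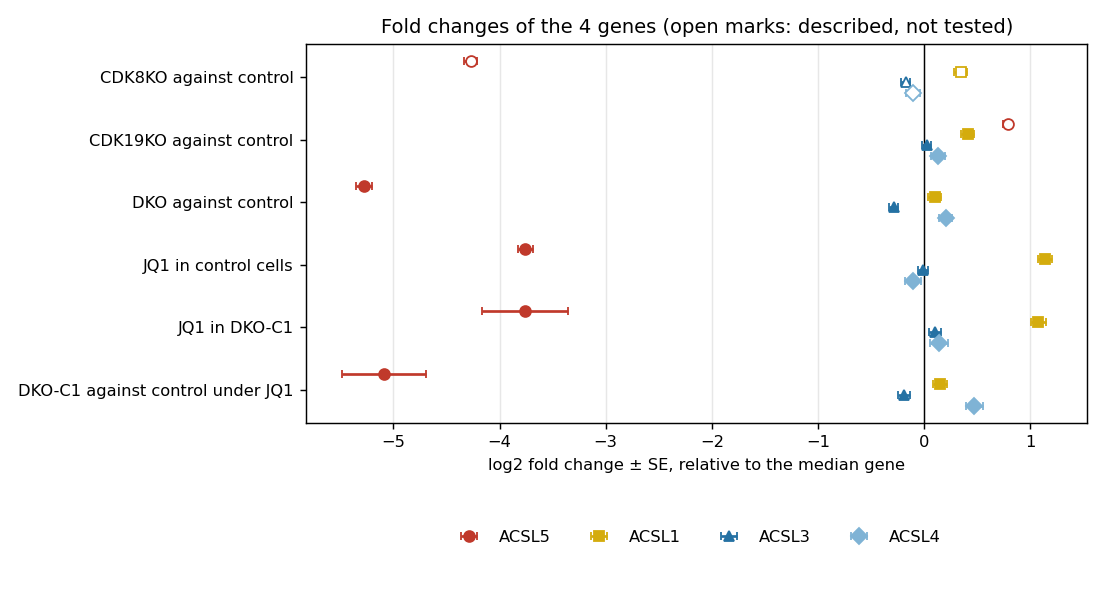
Log2 fold changes ± SE (horizontal axis) of the 4 genes in 6 comparisons (rows); filled marks were tested and open marks are described with no test. ACSL5 lies at -5.28 in DKO and at -3.76 for JQ1 in both backgrounds, while the other 3 genes lie between -0.29 and 1.14.

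A ratio of counts within a library does not depend on how libraries are scaled. ACSL5 had 0.408 counts for each ACSL1 count in CDK8KO-C1, 0.192 in CDK8KO-C2, 10.8 in CDK19KO-C1, 7.36 in CDK19KO-C2, 0.175 in DKO-C1, 0.156 in DKO-C2, 0.00593 in DKO-C1+JQ1 and 0.231 in HCT116+JQ1, against 6.87 in HCT116. The CDK19KO and control ratios lie far above all the others. For each ACSL3 count ACSL5 had 1.52 counts in the first CDK19 subline and 0.565 in the second, against 0.546 in control. Its log2 ratio to ACSL1, with 0.5 added to both counts, was lower by 5.37 in DKO than in control (difference -5.37), and the differences for ACSL3 and ACSL4 were -4.99 and -5.47. Each of these 3 had an exact permutation p of 0.0238 over 6 against 3 libraries, two-sided, and 0.0476 adjusted over the 6 ratio tests. That p is the smallest that 6 against 3 libraries allow. The 3 tests share the ACSL5 counts, and the 6 DKO libraries come from sublines C1 and C2 only. ACSL5 was chosen for a fall against the same control libraries, so the p-values of the 6 ratio tests are not independent of that choice. Given the fall of ACSL5 in DKO, any paralog that changes little gives the smallest p, so these tests add no support to that fall. With any control library left out the adjusted p was 0.143, and with any DKO library left out 0.0714. For JQ1 in control cells the differences were -4.89, -3.75 and -3.65 for ACSL1, ACSL3 and ACSL4, at an exact p of 0.1, the smallest that 3 against 3 libraries allow.

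Levels of different genes are compared per kilobase of exon. Of the CPM per kilobase summed over the 4 genes, ACSL5 made up 60.99% ± 1.15 in CDK19KO-C1 (SD, n = 3) and 36.73% in CDK19KO-C2. It made up 4.19% in CDK8KO-C1, 2.41% in CDK8KO-C2, 1.79% and 1.40% in the DKO sublines C1 and C2, 3.997% in HCT116+JQ1 and 0.113% in DKO-C1+JQ1. In those 6 groups ACSL3 was the largest, at 50.19% to 60.14%, and ACSL4 came next. In HCT116, ACSL5 made up 36.99% ± 1.70 (SD, n = 3), ACSL3 39.68%, ACSL4 19.69% and ACSL1 3.63%.

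The sum of the 4 genes was lower in the groups where ACSL5 was low. ACSL5 is part of that sum, so its own fall lowers it. ACSL5 alone gave 30.36 CPM per kilobase in HCT116, against 2.01 in CDK8KO-C1 and 1.23 in CDK8KO-C2. The 4 genes together averaged 48.03 and 50.74 CPM per kilobase in CDK8KO-C1 and CDK8KO-C2, 49.75 and 48.84 in DKO-C1 and DKO-C2, 56.54 in DKO-C1+JQ1 and 56.22 in HCT116+JQ1, against 82.09 ± 1.32 in HCT116. CDK19KO-C1 had 137.9 and CDK19KO-C2 had 88.72. With the longest transcript in place of all exons as the length, the ACSL5 share in CDK19KO-C2 was 36.54%.

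**Figure D3:**
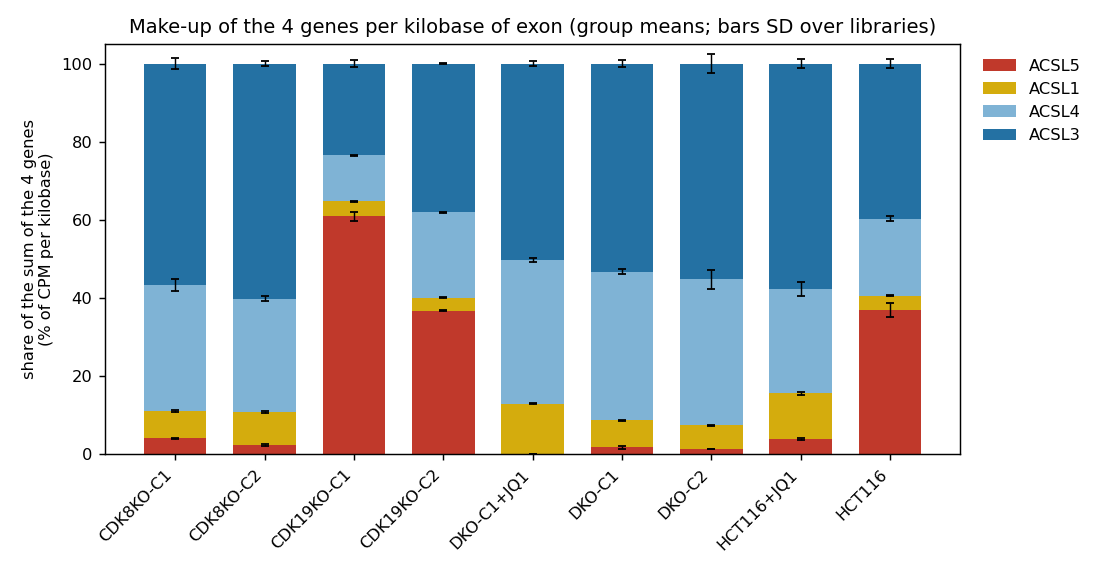
Share of each gene in the CPM per kilobase summed over the 4 genes (vertical axis, %), as group means with SD over libraries, in the 9 groups. ACSL5 takes at most 4.19% in the CDK8KO, DKO and JQ1 groups, where ACSL3 is the largest, and 60.99% in CDK19KO-C1, against 36.99% in HCT116.

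ACSL1 responded to JQ1 the opposite way. HCT116+JQ1 held 711, 727 and 730 ACSL1 counts and HCT116 held 371, 342 and 337. DKO-C1+JQ1 held 856 and 817 counts and DKO-C1 held 427, 404 and 396. In both backgrounds each treated library lay above each untreated one. ACSL1 rose by a log2 fold change of 1.14 ± 0.07 in control cells (41.2 against 18.7 CPM, adjusted p = 6.76e-17) and by 1.07 ± 0.07 in DKO-C1 (45.6 against 21.7 CPM, adjusted p = 2.19e-15). ACSL1 and ACSL5 were the members called for JQ1, 1 higher and 1 lower in each background, where 27% of all genes were called higher and 29.1% lower in control cells, and 24.9% and 25.4% in DKO-C1. The ACSL1 responses differed by -0.06 ± 0.10 between the backgrounds, with an interval of -0.25 to 0.13.

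ACSL1 had smaller fold changes in the knockouts than with JQ1, a difference that was not tested. In CDK19KO, ACSL1 rose by 0.41 ± 0.06 (adjusted p = 1.4e-06) on gene scaling and stood at -1.24 on ERCC scaling. The rise came from CDK19KO-C1, with 32.0 to 34.4 CPM, against 18.0 to 19.5 CPM in control, while CDK19KO-C2, with 18.0 to 19.6 CPM, overlapped control and gave 0.00 ± 0.07. ACSL1 was the only one of the 3 members tested in CDK19KO that was called, where 21% of all genes were called higher and 22% lower. In CDK8KO it had 0.34 ± 0.06 with no test (-0.87 on ERCC scaling), at 26.1 to 28.3 CPM in C2 and 20.1 to 22.6 CPM in C1. In DKO it had 0.10 ± 0.06 (adjusted p = 0.181); without DKO-C2 replicate b the adjusted p was 0.0492.

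ACSL3 ranged, on gene scaling, from 182.3 CPM in a DKO-C2 library to 247.7 CPM in a CDK19KO-C2 library. In DKO it fell to 193.3 ± 9.5 CPM (SD, n = 6), against 235.9 CPM in control, a log2 fold change of -0.29 ± 0.04 (adjusted p = 1.99e-07). Each DKO library, from 182.3 to 209.8 CPM, lay below each control library, from 228.3 to 245.7 CPM. JQ1 gave -0.01 ± 0.05 in control cells (adjusted p = 0.896) and 0.10 ± 0.05 in DKO-C1 (adjusted p = 0.133). CDK19KO gave 0.02 ± 0.04 (adjusted p = 0.705), and CDK8KO gave -0.18 ± 0.04 with no test.

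ACSL4 rose slightly in the double knockout. It averaged 119.4 ± 12.7 CPM in DKO (SD, n = 6), against 103.8 CPM in control, a log2 fold change of 0.20 ± 0.06 (adjusted p = 0.00598) on gene scaling and -0.71 on ERCC scaling. The groups overlap, since 1 DKO-C2 library had 96.2 CPM and the control libraries had 98.9 to 109.1 CPM. Without HCT116 replicate 3 the adjusted p was 0.052. The log2 fold change of 0.20 is the mean of both DKO sublines. Under JQ1, where the double knockout is DKO-C1 alone, ACSL4 had 129.4 and 138.2 CPM in DKO-C1+JQ1, against 85.3 to 104.6 CPM in HCT116+JQ1, a log2 fold change of 0.47 ± 0.08 (adjusted p = 7.29e-06) on gene scaling and -0.43 on ERCC scaling. ACSL3 was also lower there, by -0.19 ± 0.05 (adjusted p = 0.00394, and 0.0557 without DKO-C1+JQ1 replicate a), so 3 of the 4 genes were called, against 46.7% of all genes. JQ1 alone gave -0.11 ± 0.07 for ACSL4 in control cells (adjusted p = 0.232) and 0.14 ± 0.08 in DKO-C1 (adjusted p = 0.153), and the difference between the responses was 0.24 ± 0.11 (adjusted p = 0.183).

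ACSL6 was close to the limit of detection. It had 10 to 11 counts in CDK8KO-C1, 7 to 16 in CDK8KO-C2, 12 to 22 and 18 to 23 counts in the DKO sublines C1 and C2, and 3 to 7 counts in HCT116. It was called higher in DKO (log2 fold change 1.77 ± 0.39, adjusted p = 2.69e-05). HCT116+JQ1 had 0, 1 and 1 counts. Of the 50-base words of ACSL6, 17.6% occur in other genes, and 15.8% of its exon bases overlap another gene, so these few counts may hold reads of others.

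Sublines that carry the same label differed in the family. In CDK8KO, ACSL5 was higher in C1 than in C2 (8.28 to 8.94 against 4.64 to 5.86 CPM, log2 difference 0.71 ± 0.10, adjusted p = 1.17e-06), ACSL1 was lower (-0.37 ± 0.07, adjusted p = 8.15e-05) and ACSL3 was lower (-0.16 ± 0.05, adjusted p = 0.0133). Between them 21.1% of all genes were called. In CDK19KO, C1 exceeded C2 in ACSL5 (350.1 to 362.7 against 135.5 to 140.7 CPM, log2 difference 1.37 ± 0.05, adjusted p = 3e-23) and in ACSL1 (0.81 ± 0.07, adjusted p = 1.78e-12), while ACSL4 was lower (-0.26 ± 0.07, adjusted p = 0.00294), where 48% of all genes were called. In DKO, ACSL1 alone was called, higher in C1 (0.22 ± 0.07, adjusted p = 0.0424), where 9.42% of all genes were called. That call was lost without any of DKO-C1 replicates 1, 2 and 3 or DKO-C2 replicates b and c, with adjusted p from 0.0655 to 0.293. The ACSL1 and ACSL3 calls in CDK8KO were lost with ERCC scaling, and the ACSL3 call also without CDK8KO-C1 replicate 1 (adjusted p = 0.0778) or CDK8KO-C2 replicate 2 (adjusted p = 0.0971).

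Other genes were read as 10 lists. They cover fatty acid and lipid handling, transcription factors of lipid and intestinal genes, and the neighbours of ACSL5 on chromosome 10. The lists hold 225 genes, 178 of them tested. In CDK8KO 48 of these were called higher and 50 lower, where 19.5% and 21% of all genes were. In CDK19KO 54 were higher and 30 lower, where 21% and 22% of all genes were. In DKO 64 were higher and 54 lower, where 29.5% and 32.1% of all genes were. With JQ1 in control cells 65 were higher and 56 lower, where 27% and 29.1% of all genes were. On ERCC scaling 0, 0, 3 and 13 of them were higher and 177, 178, 161 and 77 lower. The rises of single list genes and neighbours below are therefore given on gene scaling only.

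Among the other acyl-CoA synthetases, a list that includes ACSL6, 8 of 16 were tested. In CDK8KO 2 rose and 0 fell in edgeR (1 lower at an unadjusted p under 0.05, 0 lower in DESeq2), and in CDK19KO 0 changed (1 higher and 0 lower at an unadjusted p under 0.05, 0 in DESeq2). In DKO 2 rose and 1 fell, and with JQ1 in control cells 4 rose and 2 fell. ACSL6, close to the limit of detection, is among those that rose in DKO and those that fell with JQ1. AACS, which activates acetoacetate for lipid synthesis, rose with JQ1 (33.1 against 19.99 CPM, log2 fold change 0.73, adjusted p = 1.31e-10) and in DKO (25.4 against 19.99 CPM, 0.35, adjusted p = 2.22e-05). ACSF2 rose in CDK8KO by 0.17 (adjusted p = 0.046). The list medians of -0.05, -0.01, 0.02 and 0.22 stand beside -0.02 for all genes tested in each of the 4 comparisons.

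Of the 14 tested genes of fatty acid uptake and binding, 5 rose and 3 fell in CDK8KO, 6 and 4 in CDK19KO, 7 and 5 in DKO, and 1 and 7 with JQ1. FABP5, a fatty acid binding protein of the cytosol, went opposite ways: it fell in CDK8KO (6.28 against 8.59 CPM, log2 fold change -0.47) and rose in DKO (46.6 against 8.59 CPM, 2.44, adjusted p = 2.79e-22). MFSD2A, a carrier of lysophospholipids that hold docosahexaenoic acid, rose in CDK8KO by 0.65. SLC27A6, a fatty acid transport protein, fell with JQ1 (3.93 against 12.3 CPM).

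Genes that use acyl-CoA or bind it were read in 3 lists. Of 21 tested genes of mitochondrial oxidation, 2 rose and 10 fell in CDK8KO, 6 and 3 in CDK19KO, 6 and 6 in DKO, and 10 and 3 with JQ1, with medians of -0.12, 0.01, 0.00 and 0.19. CRAT, which moves acetyl groups between coenzyme A and carnitine, rose with JQ1 (42.0 against 19.0 CPM) and in CDK19KO (38.4 against 19.0 CPM). ACAA2, the last enzyme of the mitochondrial cycle, rose in DKO by 0.58 and fell with JQ1 by a log2 fold change of -0.75. Of 15 tested peroxisomal genes, 1 rose and 7 fell in CDK8KO, 1 and 3 in CDK19KO, 4 and 3 in DKO, and 7 and 4 with JQ1, where ACOX2, an oxidase of branched chains and bile acid intermediates, fell (log2 fold change -1.45). Of 12 tested thioesterases and acyl-CoA binding proteins, 2 rose and 4 fell in CDK8KO, 3 and 1 in CDK19KO, 4 and 3 in DKO, and 5 and 4 with JQ1.

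Lipid synthesis genes split as well. Of 26 tested genes of glycerolipid synthesis and lipid droplets, 8 rose and 5 fell in CDK8KO, 9 and 5 in CDK19KO, 11 and 5 in DKO, and 11 and 8 with JQ1. PNPLA2, which starts the breakdown of stored triglyceride, rose with JQ1 (166.9 against 63.5 CPM, log2 fold change 1.39) and fell in DKO (40.9 against 63.5 CPM, -0.64). MGLL, which releases the last fatty acid from a monoglyceride, fell in CDK8KO (4.16 against 7.66 CPM, -0.93). Of 26 tested genes of phospholipid remodelling and ferroptosis, 9 rose and 5 fell in CDK8KO, 6 and 5 in CDK19KO, 11 and 8 in DKO, and 9 and 11 with JQ1. LPCAT2, which adds acyl chains to lysophospholipids, rose in CDK8KO by 0.55 and in DKO by 0.98. SLC7A11, the cystine carrier that holds ferroptosis back, fell in CDK8KO (95.2 against 174.5 CPM), in CDK19KO (77.8 against 174.5 CPM) and with JQ1 (79.4 against 174.5 CPM).

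Of 24 tested genes of fatty acid synthesis, elongation and desaturation, 10 rose and 4 fell in CDK8KO, 8 and 4 in CDK19KO, 8 and 8 in DKO, and 8 and 4 with JQ1. SCD5, a desaturase, rose in CDK8KO by 0.56, and ELOVL6, which lengthens chains of saturated fatty acids, fell with JQ1 (62.1 against 107.3 CPM). Of 25 tested transcription factors of lipid and intestinal genes, 9 rose and 7 fell in CDK8KO, 12 and 3 in CDK19KO, 8 and 12 in DKO, and 8 and 10 with JQ1. KLF4, a factor of differentiating gut epithelium, fell in CDK8KO (7.99 against 18.1 CPM, log2 fold change -1.22) and rose in CDK19KO (41.0 against 18.1 CPM, 1.16, on gene scaling). PPARGC1B, a coactivator of mitochondrial and lipid genes, fell in CDK19KO by a log2 fold change of -0.50 and in DKO by -1.22. PPARG, a nuclear receptor activated by fatty acids, fell with JQ1 (12.5 against 28.3 CPM).

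Several genes beside ACSL5 on chromosome 10 were lower in the same comparisons. Of 14 neighbours, 9 were tested. In CDK8KO 7 fell, where 21% of all genes did. There 0 rose in edgeR, and likewise 0 in DESeq2 and 0 at an unadjusted p under 0.05 in edgeR, where 19.5% of all genes rose. In DKO 3 rose and 5 fell, beside 29.5% and 32.1% of all genes. In CDK19KO 3 rose and 2 fell, beside 21% and 22%, and with JQ1 in control cells 2 rose and 4 fell, beside 27% and 29.1%. Their median log2 fold change was -0.43 in CDK8KO, -0.47 in DKO, 0.10 in CDK19KO and -0.34 with JQ1, beside -0.02 for all genes in each. ZDHHC6, a palmitoyl transferase gene whose end overlaps that of ACSL5, fell in CDK8KO (83.6 against 126 CPM, -0.59 ± 0.05), in DKO (75.8 against 126 CPM, -0.73 ± 0.05) and with JQ1 (77.4 against 126 CPM, -0.70 ± 0.05). VTI1A, a SNARE of vesicle traffic 18.6 kb after ACSL5, fell by log2 fold changes of -0.76 ± 0.05, -1.13 ± 0.05 and -0.60 ± 0.05 in the same 3. TCF7L2, the Wnt pathway's transcription factor 521.9 kb after ACSL5, had -0.46 ± 0.04, -1.04 ± 0.04 and -0.34 ± 0.05, each called.

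The same neighbours parted from ACSL5 in other comparisons. With JQ1 in DKO-C1, ZDHHC6 fell by a log2 fold change of -0.34 ± 0.06 (adjusted p = 2.49e-05), whereas VTI1A had 0.11 ± 0.07 (adjusted p = 0.162) and TCF7L2 had -0.09 ± 0.06 (adjusted p = 0.189). GPAM, which makes the first acylated intermediate of glycerolipids and lies 158.6 kb before ACSL5, fell in CDK8KO (-0.43 ± 0.06) and DKO (-0.47 ± 0.06). It had 0.13 ± 0.07 with JQ1 in control cells (adjusted p = 0.107) and rose with JQ1 in DKO-C1 (67.2 against 43.1 CPM, 0.64 ± 0.08). Farther out, SHOC2, a scaffold of RAS signalling 1360.4 kb before ACSL5, rose in DKO by 0.27 on gene scaling. PDCD4, a translation inhibitor 1474.0 kb before ACSL5, fell in CDK8KO (-0.38), CDK19KO (-0.57), DKO (-1.24) and with JQ1 (-1.16). RBM20 was called in CDK8KO (-0.62) and not in the other 3, and BBIP1 fell in CDK8KO (-0.23) and CDK19KO (-0.44) and rose in DKO (0.21).

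**Figure D4:**
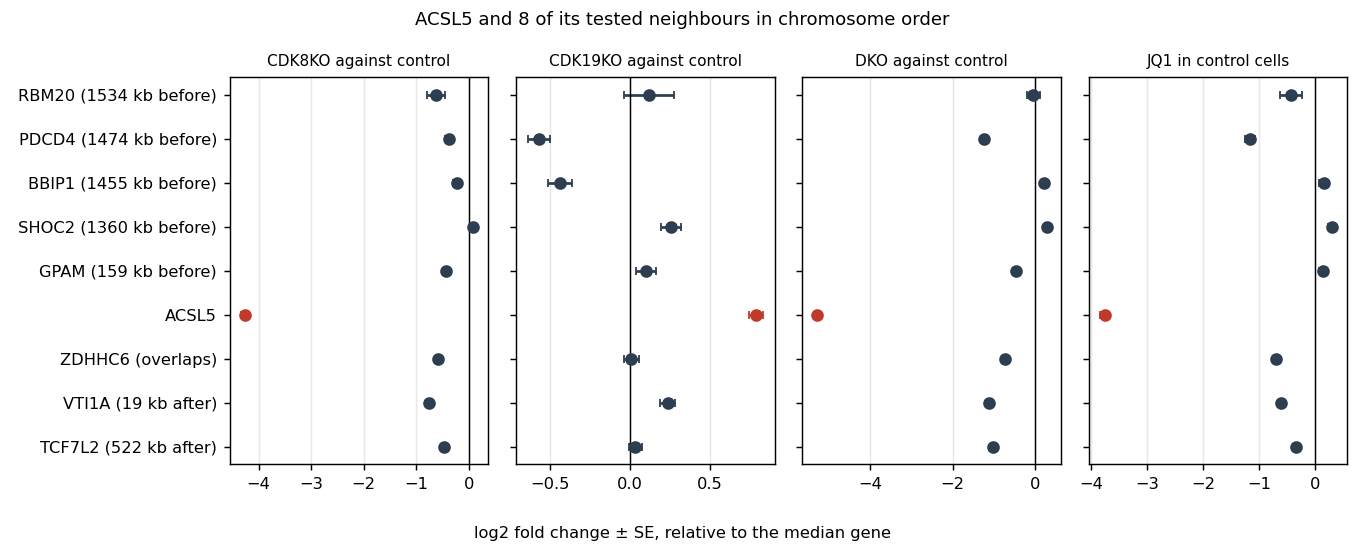
Log2 fold changes ± SE (horizontal axes) of ACSL5 (red) and 8 of its tested neighbours (dark) in chromosome order (rows, with the distance between genes in kb) in 4 comparisons. In CDK8KO, DKO and with JQ1, ZDHHC6, VTI1A and TCF7L2 lie between -0.34 and -1.13, on the same side as ACSL5 at -3.76 to -5.28.

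ACSL5 and ZDHHC6 share sequence at their ends. They run on opposite strands, and 144 exon bases are common to both, 3.40% of the ACSL5 exons and 3.84% of the ZDHHC6 exons. With the antisense RNA AL157786.1 included, 8.64% of ACSL5's exon bases overlap another gene, none on its own strand. The strand setting of the counting is not given in the sources used here, so reads from these bases cannot be told apart. How far they contribute to the ZDHHC6 changes was not tested. ACSL3 and ACSL4 overlap other genes at 1.41% and 1.22% of their exon bases, and ACSL1 at none.

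Over the 9 group means, on log2(CPM + 0.1), ZDHHC6 was also the gene most like ACSL5 among the 3776 genes compared, with Pearson's r = 0.974 and Spearman's rho = 0.867. These were tested genes that reached 5 CPM in a group and varied by at least 1 log2 unit. Y-linked genes and genes with clone-based or placeholder-type names, such as LINC, MIR, FAM and TMEM names, were passed over. ZDHHC6 averaged 139.5 CPM in CDK19KO-C1 and 62.2 CPM in DKO-C1+JQ1, against 126 CPM in HCT116. Next came MTUS1 (r = 0.969, from 123.7 to 282.7 CPM), SRI (r = 0.966, from 24.2 to 58.6 CPM), RUNX2 (r = 0.953, from 0.326 to 14.0 CPM) and PTDSS1 (r = 0.947, from 83.3 to 200.6 CPM). All 5 had their highest mean in CDK19KO-C1 and their lowest in DKO-C1+JQ1, as ACSL5 did. Among the most similar to ACSL1 were DENND1C (r = 0.964) and DGAT1, which completes triglycerides (r = 0.958, 110.3 CPM in DKO-C1+JQ1 and 110.9 CPM in HCT116+JQ1, against 46.3 CPM in DKO-C1 and 50.6 CPM in HCT116). For ACSL3 they were GEMIN5, KCTD12 and LYRM4 (r = 0.941, 0.937 and 0.930), and for ACSL4 CNTN1, SLC20A1 and GFI1 (r = 0.952, 0.935 and 0.905). These values describe 9 means that share a control line and sublines, and the genes were picked from 3776 for their likeness.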

How the data were processed

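RNA was sequenced in 26 samples of HCT116 in 9 groups, as paired reads of 100 bases, per the labels' protocols. The submitters' processing notes name STAR 2.5.2, featureCounts, Subread 1.6.3 and the build hg38. The authors deposited whole-number counts for genes and ERCC transcripts, not normalised. Strand setting and annotation release: not given in the sources used here. The names of 22 columns fit a single sample and those of 4 fit a group. Among the 4 are 3 with a DKO clone number absent from the titles, taken by elimination as DKO-C2 and called replicates a to c; the last one is DKO-C1+JQ1 replicate a.

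The main test was the quasi-likelihood test of edgeR 4.0.16 under R 4.3.3, fitted to the 26 libraries and 9 groups together, with TMM factors (0.956 to 1.02) and filterByExpr (minimum count 10, minimum total 15), which left 17198 genes. Each genotype is the mean of its sublines. Benjamini-Hochberg adjustment ran over all genes tested, and a gene was called at an adjusted p under 0.05, two-sided. SE are those of the fit. CPM use TMM effective library sizes, and values per kilobase the merged exons of GENCODE v29. Ratios within libraries had exact permutation tests over libraries (scipy 1.17.1). No pair of libraries within groups was as close as counting alone (chi-square per degree of freedom 1.41 to 13.2 over 25 pairs). Depth is given with the results, and its intervals on counts cover counting error only; intervals of the differences of JQ1 responses come from the SE of the fit.

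The members and the gene lists were chosen with earlier results of these data known. The genes named besides them follow a rule: of each list, the called gene with the largest rise and the largest fall at 5 CPM or more in a compared group, from which the text gives a part; every tested neighbour of ACSL5; and the 5 genes most like ACSL5 and 3 most like each paralog. Not all of these genes are reported here. Alternatives were DESeq2 size factors, ERCC factors, DESeq2 1.42.0, limma 3.58.1 voom, a 5 CPM minimum or no filter, only the libraries compared, a replicate block, single sublines, and leaving out each library.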

Additional observations from a re-analysis of the deposited data

Results flagged for a closer look

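Each result here is a difference between sublines C1 and C2 that carry the same knockout label, as a log2 difference, C1 minus C2, from edgeR's quasi-likelihood test. In CDK8KO, ACSL5 differed by 0.71 (adjusted p = 1.17e-06), ACSL1 by -0.37 (adjusted p = 8.15e-05) and ACSL3 by -0.16 (adjusted p = 0.0133). In CDK19KO, ACSL5 differed by 1.37 (adjusted p = 3e-23), ACSL1 by 0.81 (adjusted p = 1.78e-12) and ACSL4 by -0.26 (adjusted p = 0.00294). In DKO, ACSL1 differed by 0.22 (adjusted p = 0.0424). ACSL5 and ACSL1 were both higher in C1 of CDK19KO, whereas in CDK8KO ACSL5 was higher and ACSL1 lower in C1.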

How the results depend on the processing

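The falls of ACSL5 in DKO, with JQ1 in both backgrounds and under JQ1, and the rises of ACSL1 with JQ1, kept their direction and call under each alternative run. ERCC factors turned round the log2 fold change of ACSL1 in CDK8KO (-0.87), CDK19KO (-1.24), DKO (-0.81) and DKO-C1 against control under JQ1 (-0.76), of ACSL3 in CDK19KO (-1.62) and JQ1 in DKO-C1 (-0.17), of ACSL4 in CDK19KO (-1.52), DKO (-0.71), JQ1 in DKO-C1 (-0.12) and under JQ1 (-0.43), and of ACSL5 in CDK19KO (-0.87). For CDK8KO against CDK19KO they gave 0.24 for ACSL3, 0.37 for ACSL1, 0.20 for ACSL4 and -4.63 for ACSL5. In CDK8KO they moved ACSL3 to -1.39, ACSL4 to -1.32 and ACSL5 to -5.50. With JQ1 in control cells ACSL3 (-0.37) and ACSL4 (-0.47) became called. Between sublines the calls of ACSL3 (-0.12) and ACSL1 (-0.32) in CDK8KO and of ACSL1 in DKO (0.0080) were lost, and ACSL4 in DKO turned to -0.16. List genes called higher numbered 0 in CDK8KO, 0 in CDK19KO, 3 in DKO, 13 with JQ1 in control cells and 17 in DKO-C1; those lower numbered 177, 178 and 161 in CDK8KO, CDK19KO and DKO. Over all genes, ERCC factors called 16277, 16855 and 14918 genes in CDK8KO, CDK19KO and DKO, against 6968, 7391 and 10586. The labels name no spike-in for the single knockouts, and the cause of these shifts was not tested.

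Subline C1 alone gave, in CDK8KO against control, -0.26 for ACSL3, 0.16 for ACSL1 and -3.91 for ACSL5, and C2 alone -0.094, 0.53 and -4.63. For CDK8KO against CDK19KO, C1 gave -0.65 for ACSL1, -0.064 for ACSL4 and -5.38 for ACSL5, and C2 gave 0.53, -0.40 and -4.73. In CDK19KO, C1 gave -0.0077 for ACSL3, -0.0034 for ACSL4 and 1.47 for ACSL5, and C2 gave 0.0025 for ACSL1, no longer called, 0.26 for ACSL4, now called, and 0.10 for ACSL5. In DKO, ACSL1 was called in C1 alone (0.21) and at -0.0138 in C2.

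ACSL4 in CDK19KO was called with no filter on low counts (0.14), with only the libraries compared (0.12) and with the replicate block (0.14), and ACSL4 with JQ1 in DKO-C1 with only the libraries compared (0.13). ACSL1 between the DKO sublines (0.22) was not called with DESeq2 size factors (0.21), DESeq2 (0.21), no filter (0.22) or only the libraries compared (0.23), the last of which called 693 genes there, against 1620. The difference of JQ1 responses of ACSL5 was 0.0031 with DESeq2 size factors, 0.0010 with no filter and 0.10 with ERCC factors, and that of ACSL1 0.0411 with ERCC factors.

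Same-numbered libraries correlated at -0.168 to 0.0819, so the numbers do not pair them. The replicate block also left out the unnumbered libraries, so DKO is DKO-C1 alone there and 2 choices changed together; ACSL1 in DKO-C1 alone was called without the block too. It called 7346 genes in CDK8KO, against 6968, and made the values 0.21 for ACSL1 in DKO, 0.20 for ACSL4 with JQ1 in DKO-C1 and 0.20 for ACSL1 under JQ1, all now called, -0.16 for ACSL3 under JQ1, no longer called, 0.0086 for ACSL3 with JQ1 in control cells and 0.50 for the difference of JQ1 responses of ACSL5.

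Leaving out each library in turn, ACSL3 ran from -0.0008 to 0.0523 in CDK19KO, -0.0318 to 0.0215 with JQ1 in control cells, -0.2136 to -0.1722 under JQ1, -0.1982 to -0.1332 between the CDK8KO sublines and -0.0682 to 0.0337 between the DKO sublines. ACSL1 ran from 0.0622 to 0.1352 in DKO and 0.1444 to 0.2907 between its sublines, and ACSL4 from 0.1502 to 0.2648 in DKO and -0.0757 to 0.1537 between its sublines. The difference of JQ1 responses of ACSL5 ran from -0.7318 to 0.4761. The ratio differences in DKO ran from -5.4395 to -5.3402 for ACSL1, -5.0825 to -4.9348 for ACSL3 and -5.5540 to -5.4124 for ACSL4, where fewer libraries allow no adjusted p under 0.05.

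Depth limits ACSL5 in DKO-C1+JQ1, where 10 counts in 2 libraries carry the value. By rank correlation, 2 of the 5 genes most like ACSL5 stayed in its list, 1 of 3 for ACSL1, 0 of 3 for ACSL3 and 1 of 3 for ACSL4.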
